A study of Homo sapiens with 6 samples.

Results

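Cytochrome P450 (CYP) and aldehyde dehydrogenase (ALDH) genes were compared between NOZ-R, a line made resistant to gemcitabine, a nucleoside analogue, through stepwise increases of its concentration, and NOZ, the established human gallbladder cancer line it came from. Members were the rows of the count table whose symbols have the form of a CYP or an ALDH gene with family number, subfamily letter and gene number, which left out pseudogenes ending in P. They numbered 74 of 63140 rows, 56 CYP and 18 ALDH genes. ALDH2, whose symbol carries no subfamily letter, is not among them. RNA-seq libraries of poly-A RNA were available for 3 samples of NOZ-R and 3 of NOZ, with 15661532 to 18855409 counts in NOZ-R and 14136037 to 19244923 in NOZ. Both groups carry the gallbladder cancer background of NOZ, and neither the drug dose, nor whether drug was present at harvest, nor whether NOZ-R is a single clone is given in the sources used here. The labels do not say whether replicates were separate cultures, so each p-value reflects the spread between these libraries alone, and that spread may be technical.

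P450 enzymes are haem proteins that insert an oxygen atom into their substrate. Those of the first 3 families mostly oxidise drugs and other foreign compounds, family 4 hydroxylates fatty acids, and the higher families act on cholesterol, bile acids, steroid hormones, vitamin D and retinoic acid. In the endoplasmic reticulum they take electrons from P450 reductase (POR), and in mitochondria from ferredoxin. Aldehyde dehydrogenases oxidise aldehydes to acids with NAD or NADP. Some make retinoic acid, some clear reactive aldehydes from lipids, and others work in the metabolism of proline, lysine, GABA or folate. High ALDH activity is often used as a mark of stem-like cancer cells.

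Each gene was tested with edgeR's quasi-likelihood test in a fit over all 14386 genes that passed a filter on low counts. Levels are CPM, counts divided by a library size scaled for composition, for comparing lines, and FPKM, which also divides by gene length, for comparing genes. Differences are log2 ratios of NOZ-R over NOZ. A gene passed the test at a Benjamini-Hochberg adjusted p under 0.05.

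Epithelial keratin genes were high in both lines. The 10 gallbladder and biliary markers summed to between 3460 and 3546 CPM in NOZ-R and between 2540 and 3002 CPM in NOZ, with KRT7, KRT8, KRT18 and MUC1 higher, EPCAM and CDH1 lower, and KRT19 and SOX9 not passed. KRT8 averaged 1126.6 CPM in NOZ-R and 949.2 CPM in NOZ, and KRT19 averaged 891.0 CPM in NOZ-R and 926.9 CPM in NOZ. CDH1 was low in both lines and CFTR had 0 counts. Hepatocyte markers summed to between 77.1 and 84.8 CPM in NOZ-R and between 42.1 and 42.2 CPM in NOZ, nearly all from SERPINA1, which was higher, and CPS1, which did not pass. APOB and FGB had 0 counts, and 8 of the 10 genes were too low to be tested. Fibroblast markers summed to between 7.91 and 8.11 CPM in NOZ-R and between 3.10 and 3.59 CPM in NOZ, with COL3A1 and FAP higher of 8 genes. Leukocyte and endothelial markers summed to between 12.4 and 14.4 CPM in NOZ-R and between 5.26 and 8.09 CPM in NOZ, with PECAM1 higher of 9 genes. The part of other cells in the results was not tested, and in bulk RNA fewer cells of a type and less RNA per cell cannot be told apart. NOZ replicate 2 stood apart from the other NOZ libraries: across genes, its deviation from the NOZ mean had a rank correlation with GC content of -0.495, while the values for NOZ replicates 1 and 3 were 0.312 and 0.364. Without it, 7 CYP members were higher and 3 lower and 4 ALDH members were higher and 3 lower, and CYP2S1 was the 1 call lost.

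Of the 74 members, 31 could be tested, 19 CYP and 12 ALDH genes. Of these, 11 were higher and 7 lower in NOZ-R, and 13 did not pass. That is 58.1% of the tested members, beside 60.2% of all tested genes, of which 30.4% were higher and 29.8% lower. The median log2 ratio was 0.19 over the tested members and -0.01 over all tested genes. The share of members called was thus near the share of all genes. At least 2-fold changes among the genes called were seen in 7 members upward and 1 downward, against 8.96% and 7.57% of all genes. CYP27C1, CYP4X1 and CYP39A1 reached the filter in 3 NOZ-R libraries but in fewer than 3 NOZ libraries. CYP27C1 and CYP4X1 reached it in 0 NOZ libraries, so that they could enter the test only if they were higher in NOZ-R. CYP39A1 reached it in 2 NOZ libraries, so its entry rested only in part on NOZ-R. CYP2D7 and CYP51A1 reached it in fewer than 3 NOZ-R libraries. No weight rests on these counts as a set.

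**Figure D1:**
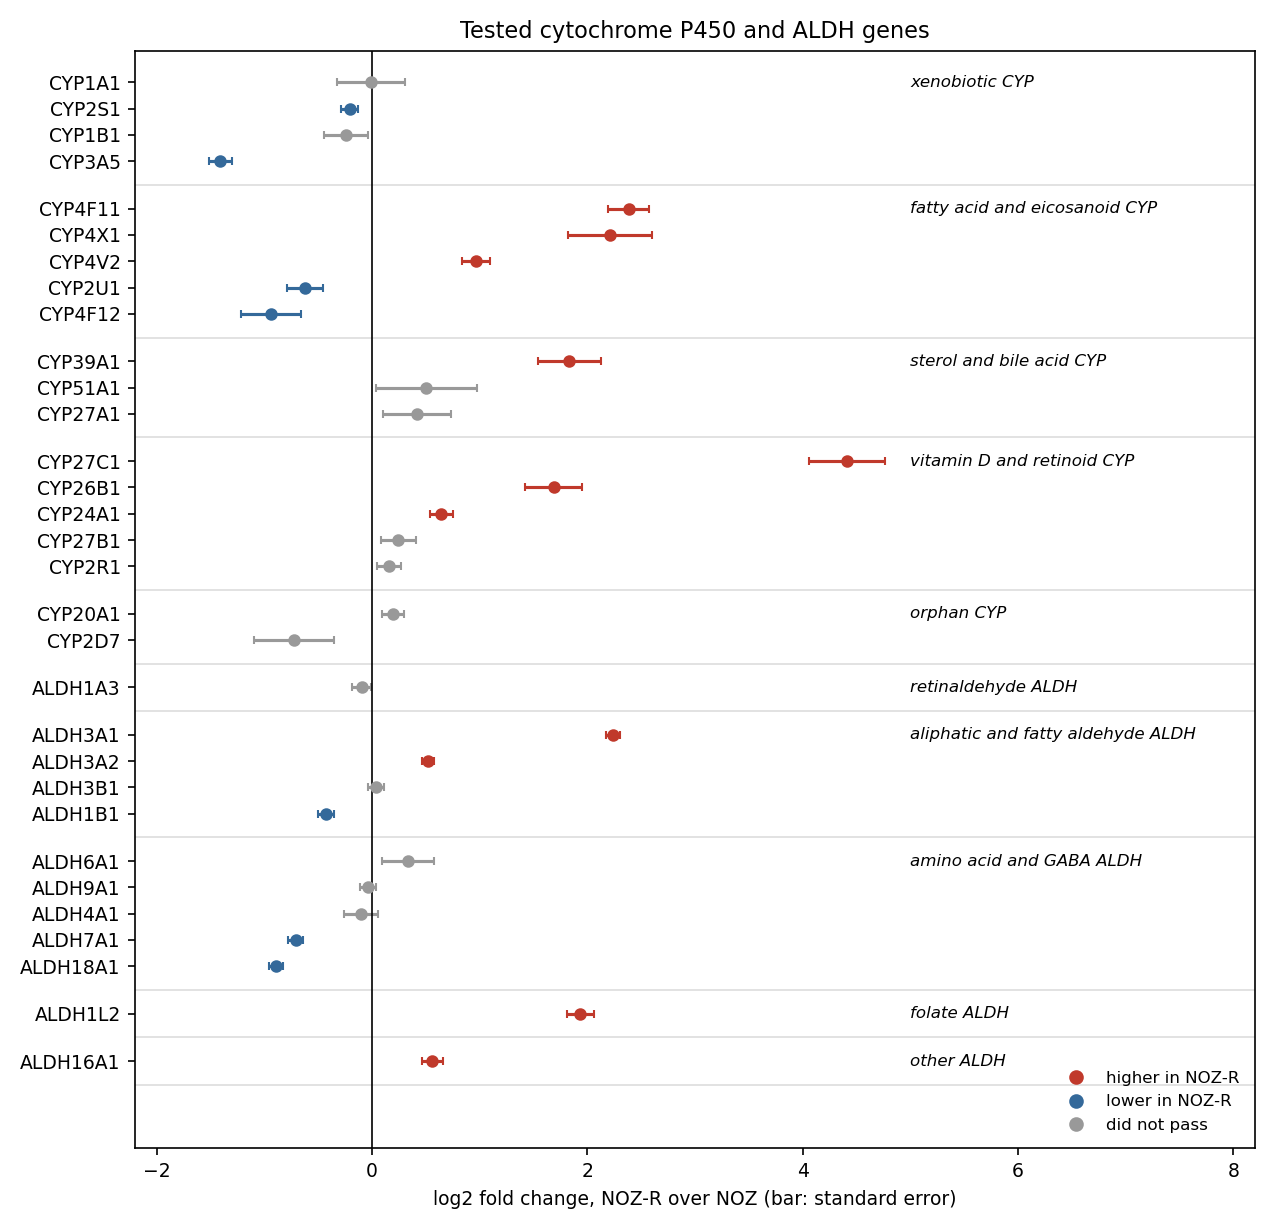
Log2 fold change of NOZ-R over NOZ (x axis) for the 31 tested members (y axis), grouped by role, with bars for the standard error of the edgeR fit. CYP27C1 at 4.41 lies farthest to the right and CYP3A5 at -1.41 farthest to the left.

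Promoter sequence from RefSeq (GRCh38.p14) is given for 3 members with large or well measured changes, for which the 250 bases before the start contain no exon of the GENCODE 29 annotation. CYP27C1 and CYP4F11 were higher in NOZ-R and ALDH18A1 was lower. All 3 lie on the minus strand and are written 5′ to 3′ in the direction of the gene, in lower case, with the window of the upstream of 2 CYP27C1 starts at chr2:127220300-127220549, of CYP4F11 at chr19:15934868-15935117 and of ALDH18A1 at chr10:95656712-95656961. Capitals in the CYP4F11 window mark the only match to the motifs searched among these 3 windows. The window of the other CYP27C1 start, at chr2:127205768-127206017 and not printed, holds GCGTG at -134.
CYP27C1: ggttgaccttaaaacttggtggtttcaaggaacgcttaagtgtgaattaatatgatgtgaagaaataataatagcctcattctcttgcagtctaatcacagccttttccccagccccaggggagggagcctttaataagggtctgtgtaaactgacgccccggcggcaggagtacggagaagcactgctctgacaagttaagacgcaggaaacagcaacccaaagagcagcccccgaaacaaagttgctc
CYP4F11: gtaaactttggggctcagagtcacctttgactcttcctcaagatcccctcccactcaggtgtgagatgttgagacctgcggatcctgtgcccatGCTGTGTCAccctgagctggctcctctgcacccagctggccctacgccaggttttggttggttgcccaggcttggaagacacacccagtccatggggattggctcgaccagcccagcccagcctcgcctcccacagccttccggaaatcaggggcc
ALDH18A1: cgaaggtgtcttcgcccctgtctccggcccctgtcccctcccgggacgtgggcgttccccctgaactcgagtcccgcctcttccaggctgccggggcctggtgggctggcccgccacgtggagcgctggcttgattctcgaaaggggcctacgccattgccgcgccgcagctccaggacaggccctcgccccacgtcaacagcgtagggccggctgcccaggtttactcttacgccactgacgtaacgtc

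The 5 motifs searched, on both strands, were GCGTG, the core of the xenobiotic response element bound by the aryl hydrocarbon receptor, TGACNNNGC, the core of the antioxidant response element, TGATGNAA, the core of the amino acid response element, and AGNTCA repeated in the same direction with 3 or 5 bases between, as bound by the vitamin D and retinoic acid receptors. The CYP4F11 match was to the antioxidant motif on the opposite strand, with its first base at -156 from the start. Of all 35116 RefSeq promoter windows of this length, 10.9% hold that motif, 32.2% hold GCGTG and 3.14% hold the amino acid motif, and the repeats with 3 and 5 bases between are held by 0.0456% and 0.0655%. Of the 23 tested members with a window in the table, 2 held the antioxidant motif (CYP4F11 and CYP4V2), 7 held GCGTG in at least 1 window (ALDH1A3, ALDH3A2, CYP1A1, CYP20A1, CYP27C1, CYP4X1 and CYP51A1) and 0 held the amino acid motif or a repeat. Members with more than 1 window were counted once, so these counts of genes are not directly comparable with the shares of windows. These matches describe sequence only. The table matched 53 of the 74 members by symbol. ALDH3A1, ALDH1L2 and CYP24A1 are missing from it.

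ALDH3A1 was the most abundant member by FPKM in every NOZ-R library, while ALDH18A1 was slightly above it in NOZ replicates 1 and 2. It encodes a cytosolic enzyme that oxidises medium-chain and aromatic aldehydes, is abundant in the cornea and is inducible through the aryl hydrocarbon receptor. ALDH3A1 (chromosome 17, 19737984 to 19748943) measured 627.0, 603.6 and 605.6 CPM in the NOZ-R libraries, against 132.0, 118.4 and 138.7 CPM in the NOZ libraries. All NOZ-R libraries lay far above all NOZ libraries, by 4.72-fold, a log2 ratio of 2.24 ± 0.0627 (standard error, adjusted p by edgeR = 3.98e-12). By FPKM it ranked between 150 and 162 among all rows in the NOZ-R libraries, and between 1033 and 1232 in the NOZ libraries.

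Its neighbour on chromosome 17, ALDH3A2, rose less. This gene encodes the microsomal fatty aldehyde dehydrogenase that is mutated in Sjögren-Larsson syndrome. It had 252.7, 230.5 and 240.4 CPM in NOZ-R, against 169.5, 169.6 and 164.9 CPM in NOZ. The groups did not overlap, and the log2 ratio was 0.52 ± 0.0551 (standard error, adjusted p by edgeR = 2.32e-06). ALDH3B1, a plasma membrane enzyme for fatty aldehydes, overlapped between the lines at 38.7 CPM ± 0.574 in NOZ-R and 37.8 CPM ± 2.11 in NOZ (SD, n = 3 each, adjusted p by edgeR = 0.697). ALDH1B1, a mitochondrial enzyme for acetaldehyde, fell to 36.2, 37.8 and 39.3 CPM in NOZ-R, against 52.9, 48.0 and 51.5 CPM in NOZ. Its log2 ratio was -0.43 ± 0.0729 (standard error, adjusted p by edgeR = 0.000179), without overlap.

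The rise of ALDH3A1 changed the make-up of the ALDH family. The 18 ALDH members summed to 232.1 FPKM ± 5.10 in NOZ-R and 139.8 FPKM ± 6.98 in NOZ (SD, n = 3 each). ALDH3A1 took 64.9% ± 0.261 of that sum in NOZ-R and 24.9% ± 0.795 in NOZ. ALDH18A1 took 7.58% ± 0.294 in NOZ-R and 25.5% ± 0.222 in NOZ, about the same share as ALDH3A1 in the parental line. Without ALDH3A1 the family summed to 81.5 FPKM ± 1.29 in NOZ-R and 104.9 FPKM ± 4.34 in NOZ. FPKM values here carry no correction for library composition. The CYP family was expressed at a lower level, with 28.9 FPKM ± 0.632 over 56 members in NOZ-R and 27.9 FPKM ± 0.542 in NOZ. CYP2S1 was the largest CYP member in both lines, with 26.9% ± 0.495 of the CYP sum in NOZ-R and 35.2% ± 0.818 in NOZ.

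**Figure D2:**
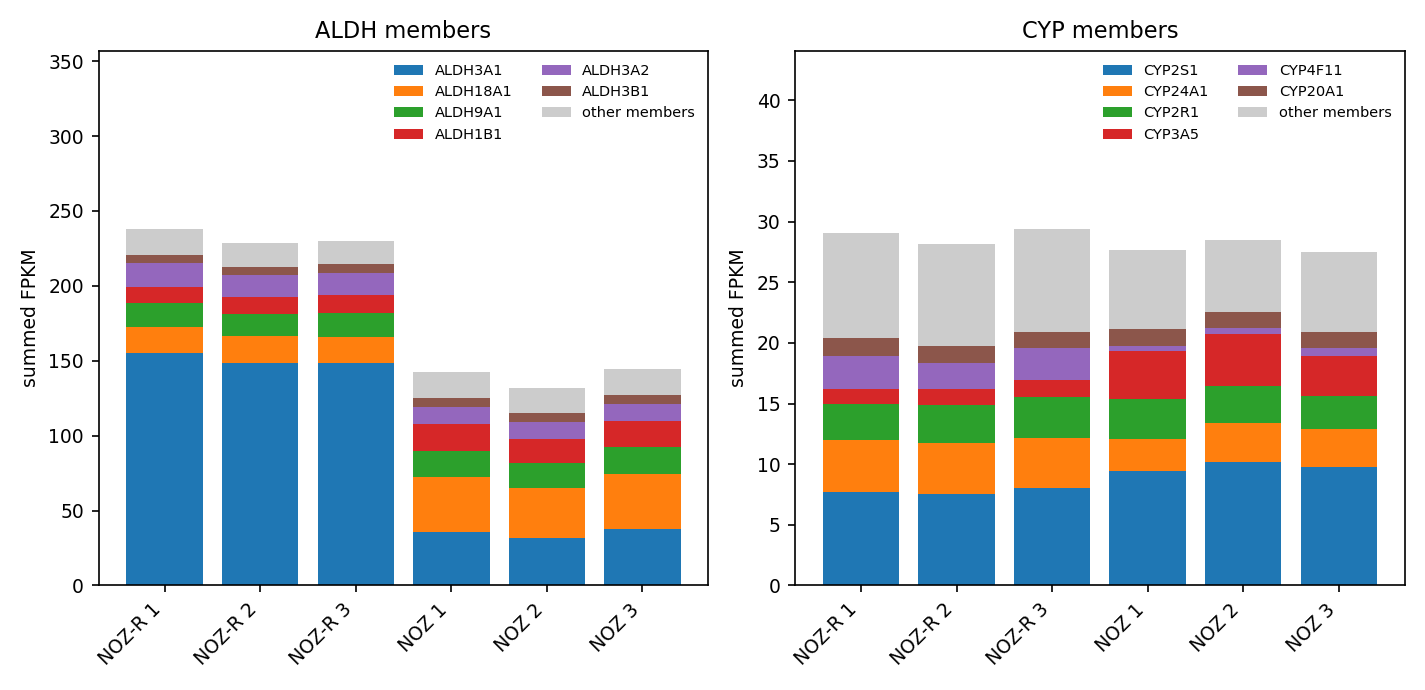
Summed FPKM (y axis) of the ALDH members (left) and CYP members (right) in each library (x axis), with the 6 members of the highest mean level in colour and the others in grey. The ALDH3A1 block makes up most of the ALDH bar in each NOZ-R library, while the CYP bars are of similar height.

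Enzymes of amino acid metabolism were lower or did not pass. With 5 of 6 tested, 0 were higher and 2 lower, beside 30.4% and 29.8% of all tested genes. ALDH18A1 encodes the pyrroline-5-carboxylate synthase that starts proline synthesis from glutamate. It had 68.9, 71.4 and 67.5 CPM in NOZ-R, against 132.9, 120.0 and 132.6 CPM in NOZ, a log2 ratio of -0.89 ± 0.0640 (standard error, adjusted p by edgeR = 5.25e-08). Every NOZ-R library lay well below every NOZ library. ALDH7A1, the lysine pathway enzyme antiquitin, which has processed pseudogenes that can share its reads, averaged 64.1 CPM ± 3.91 in NOZ-R and 105.0 CPM ± 5.68 in NOZ (SD, n = 3 each), a log2 ratio of -0.71 ± 0.0687 (standard error, adjusted p by edgeR = 9.86e-07). ALDH9A1, which acts in GABA and carnitine synthesis, had 48.9, 47.5 and 50.5 CPM in NOZ-R, against 51.0, 46.8 and 53.2 CPM in NOZ. These values overlap (log2 ratio -0.04 ± 0.0722, standard error, adjusted p by edgeR = 0.659). ALDH4A1 of proline breakdown had a log2 ratio of -0.10 and ALDH6A1 of valine breakdown one of 0.34, and neither passed. ALDH4A1 shares 41.1% of its exonic bases with another gene model on the same strand, so its counts are uncertain. ALDH5A1, succinic semialdehyde dehydrogenase, was too low to be tested, with 9, 8 and 10 counts in NOZ-R and 8, 7 and 2 in NOZ.

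The folate enzyme ALDH1L2 rose. It encodes the mitochondrial 10-formyltetrahydrofolate dehydrogenase, which makes NADPH. It measured 17.2, 16.2 and 17.3 CPM in NOZ-R, against 3.99, 5.04 and 4.20 CPM in NOZ, with no overlap, a 3.82-fold difference (log2 ratio 1.93 ± 0.124, standard error, adjusted p by edgeR = 1.68e-08). Its cytosolic counterpart ALDH1L1 had at most 2 counts in any library. ALDH16A1 had a log2 ratio of 0.56 ± 0.101 (standard error, adjusted p by edgeR = 0.000302).

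The ALDH genes listed by role as retinaldehyde dehydrogenases did not pass the test or were nearly silent in both lines. ALDH1A1, the isoform most often tied to ALDH activity in stem-like cancer cells, had 1, 0 and 0 counts in NOZ-R and 1, 0 and 0 in NOZ. A count of 0 allows up to 3 counts, which is between 0.166 and 0.201 CPM in the NOZ-R libraries and between 0.150 and 0.203 CPM in the NOZ libraries. ALDH1A2 had at most 4 counts and ALDH8A1 at most 2 in any library. ALDH1A3 was the expressed retinaldehyde dehydrogenase, with 24.7, 22.0 and 23.1 CPM in NOZ-R, against 24.0, 26.6 and 24.2 CPM in NOZ. The lines overlapped and the log2 ratio of -0.10 ± 0.0859 did not pass (standard error, adjusted p by edgeR = 0.342). It passed as lower without the composition scaling (log2 ratio -0.23, adjusted p = 0.0363 with library size only). Of its exonic bases, 27.5% are shared with a gene model on the opposite strand, and the deposited row of its antisense transcript was also counted, so the 2 cannot be separated without strand.

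Among the CYP genes, those of retinoid and vitamin D metabolism were higher or did not pass. With 5 of 7 tested, 3 were higher and 0 lower, beside 30.4% and 29.8% of all tested genes. CYP27C1, a retinoid 3,4-desaturase of human skin, had the largest log2 ratio of the tested members. It reached the filter in NOZ-R alone, so it could enter the test only if higher there. Its counts were 65, 68 and 72 in NOZ-R, against 2, 3 and 5 in NOZ, or 3.59, 4.21 and 4.83 CPM in NOZ-R and 0.0999, 0.166 and 0.339 CPM in NOZ. The gene was near silent in NOZ and lowly expressed in all 3 NOZ-R libraries, with a log2 ratio of 4.41 ± 0.350 (standard error, adjusted p by edgeR = 1.42e-07). From summed counts of 205 in NOZ-R and 10 in NOZ the ratio was 22.0, with a 95% exact interval of 11.7 to 46.7 that covers counting error only.

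CYP26B1, which breaks down retinoic acid, measured 3.15, 5.33 and 4.22 CPM in NOZ-R, against 1.15, 1.72 and 1.02 CPM in NOZ. The lowest NOZ-R library was above the highest NOZ library, and the log2 ratio was 1.69 ± 0.265 (standard error, adjusted p by edgeR = 9.18e-05). The other retinoic acid hydroxylases, CYP26A1 and CYP26C1, had 0 counts in every library. CYP24A1, the vitamin D 24-hydroxylase, which by FPKM ranked second among CYP members in NOZ-R and behind CYP3A5 in every NOZ library, had 18.1, 17.7 and 17.2 CPM in NOZ-R, against 9.89, 12.1 and 12.1 CPM in NOZ. It rose by 0.64 ± 0.107 on the log2 scale without overlap (standard error, adjusted p by edgeR = 0.000160). CYP2R1, which makes 25-hydroxyvitamin D, had 13.8, 14.4 and 16.0 CPM in NOZ-R, against 14.5, 13.1 and 11.7 CPM in NOZ. CYP27B1, which activates it, averaged 4.29 CPM ± 0.306 in NOZ-R and 3.64 CPM ± 0.265 in NOZ (SD, n = 3 each). Neither passed (adjusted p by edgeR = 0.235 and 0.213).

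Family 4 and related fatty acid hydroxylases moved in both directions. Of 14 members 5 were tested, with 3 higher and 2 lower, beside 30.4% of all tested genes higher and 29.8% lower. CYP4F11, which hydroxylates long-chain fatty acids and vitamin K, measured 10.3, 8.61 and 10.3 CPM in NOZ-R, against 1.60, 1.61 and 2.51 CPM in NOZ. The groups were far apart, with a 5.21-fold difference (log2 ratio 2.38 ± 0.187, standard error, adjusted p by edgeR = 1.24e-07). CYP4F12, in the same cluster on chromosome 19 (15672757 to 15697174, with CYP4F11 at 15912367 to 15934867), went the other way. It had 0.940, 1.30 and 1.48 CPM in NOZ-R, against 2.80, 1.83 and 2.44 CPM in NOZ. Its log2 ratio was -0.94 ± 0.276 (standard error, adjusted p by edgeR = 0.00951), and without NOZ replicate 1 it was -0.78 and did not pass (adjusted p = 0.0542). The other CYP4F genes of the cluster, CYP4F2, CYP4F3, CYP4F8 and CYP4F22, had at most 3 counts in any library, as did CYP4Z1. CYP4F genes and pseudogenes are similar in sequence, so reads may have been assigned among them with error.

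CYP4X1, an enzyme with activity on anandamide, had 40, 18 and 30 counts in NOZ-R, against 6, 7 and 7 in NOZ. That is 2.21, 1.11 and 2.01 CPM in NOZ-R and 0.300, 0.388 and 0.474 CPM in NOZ. It too reached the filter in NOZ-R alone. NOZ-R replicate 2 was the lowest of its line and still above all NOZ libraries (log2 ratio 2.21 ± 0.389, standard error, adjusted p by edgeR = 0.000242). CYP4V2, the omega-hydroxylase mutated in Bietti crystalline dystrophy, averaged 11.9 CPM ± 1.34 in NOZ-R and 6.05 CPM ± 0.498 in NOZ (SD, n = 3 each), a log2 ratio of 0.97. CYP2U1, a fatty acid hydroxylase, averaged 4.37 CPM ± 0.774 in NOZ-R and 6.76 CPM ± 0.805 in NOZ (SD, n = 3 each), a log2 ratio of -0.62 (adjusted p by edgeR = 0.00566). The epoxygenase gene CYP2J2 had at most 4 counts, and CYP4A11, CYP4A22 and CYP4B1 had 0.

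**Figure D3:**
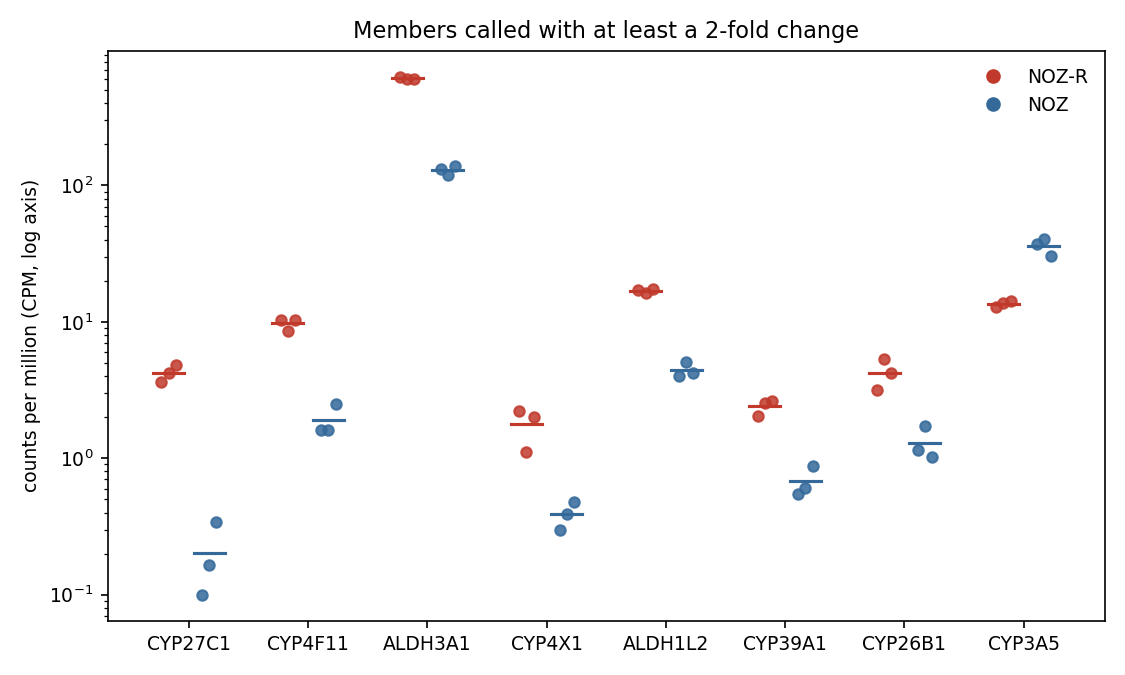
CPM on a log axis (y) in each library for the 8 members called with an at least 2-fold change (x axis), with NOZ-R points left of NOZ points and a line at each mean. In none of the 8 genes do the lines overlap, which follows largely from how they were picked. Libraries do not overlap in 65.3% of all tested genes. CYP3A5 is the only one of the 8 that is lower in NOZ-R.

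Of the drug-metabolising CYP genes, few were expressed and none of those tested was higher. Of 20 members 4 could be tested, with 0 higher and 2 lower. Over all tested genes 30.4% were higher and 29.8% lower, so little can be read from 4 genes. CYP3A5 oxidises many drugs and is the main CYP3A enzyme outside the liver in many tissues. It had 12.8, 13.8 and 14.2 CPM in NOZ-R, against 37.0, 40.4 and 30.5 CPM in NOZ. Every NOZ-R library lay far below every NOZ library, and the log2 ratio was -1.41 ± 0.109 (standard error, adjusted p by edgeR = 1.06e-07). CYP3A4, the main hepatic drug oxidase and a close relative, had 5, 2 and 2 counts in NOZ-R, against 0, 0 and 0 in NOZ, too few to test. The CYP3A genes are alike in sequence, so reads may be split among them with error. CYP3A7 and CYP3A43 had at most 2 counts.

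CYP2S1, an epithelial P450 outside the liver, had 21.7, 21.6 and 22.9 CPM in NOZ-R, against 24.7, 26.4 and 25.3 CPM in NOZ. Its log2 ratio of -0.21 ± 0.0804 (standard error, adjusted p by edgeR = 0.0379) was past the threshold in the full data, and the call was lost in 11 of 17 alternative settings, among them each of the 6 settings without 1 library and the replicate block (adjusted p = 0.0574). CYP1A1, the classical target of the aryl hydrocarbon receptor, had 40, 23 and 36 counts in NOZ-R and 49, 20 and 38 in NOZ. These overlap, with a log2 ratio of -0.01 ± 0.317 (standard error, adjusted p by edgeR = 0.979). CYP1B1, which oxidises polycyclic hydrocarbons and oestrogens, had a log2 ratio of -0.25 ± 0.203 (standard error, adjusted p by edgeR = 0.313). CYP2E1 had 11, 3 and 3 counts in NOZ-R and 7, 13 and 5 in NOZ, and CYP2D6 had 8, 0 and 0 in NOZ-R and 6, 2 and 0 in NOZ. The remaining members of this role had at most 2 counts in any library.

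Sterol and bile acid enzymes were low. CYP39A1, the 7-alpha-hydroxylase of 24-hydroxycholesterol, had 37, 41 and 39 counts in NOZ-R, against 11, 11 and 13 in NOZ. That is 2.05, 2.54 and 2.61 CPM in NOZ-R and 0.549, 0.609 and 0.880 CPM in NOZ. As given above, it reached the filter in 2 NOZ libraries, so its entry into the test rested in part on NOZ-R. The lines were well separated, with a log2 ratio of 1.83 ± 0.295 (standard error, adjusted p by edgeR = 0.000113). CYP27A1, the mitochondrial sterol 27-hydroxylase, averaged 1.33 CPM ± 0.199 in NOZ-R and 1.01 CPM ± 0.297 in NOZ (SD, n = 3 each, adjusted p by edgeR = 0.273). CYP7A1 and CYP7B1 had 0 counts, CYP8B1 had at most 1 and CYP46A1 had at most 3.

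CYP51A1, the lanosterol demethylase of cholesterol synthesis, was listed with 24, 23 and 4 counts in NOZ-R and 12, 13 and 13 in NOZ. NOZ-R replicate 3 lay below all other libraries and the lines overlapped (log2 ratio 0.50 ± 0.472, standard error, adjusted p by edgeR = 0.374). Without NOZ-R replicate 3 the log2 ratio was 0.92 and passed (adjusted p = 0.0484). In the GENCODE 29 annotation 79.4% of its exonic bases are shared with other gene models on the same strand, whose rows were at 0 in every library of the count table. How reads in shared exons were counted is not given in the sources used here, so this row cannot be taken as the level of the gene.

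No steroid hormone synthesis enzyme was expressed at a testable level. CYP11A1 and CYP19A1 had at most 2 counts in any library, and CYP11B1, CYP11B2, CYP17A1 and CYP21A2 had 0. CYP20A1, whose substrate is unknown, had a log2 ratio of 0.19 (adjusted p by edgeR = 0.114) and CYP2D7, which can share reads with CYP2D6, one of -0.73 (adjusted p by edgeR = 0.109), although neither overlapped between the lines. Libraries do not overlap in 65.3% of all tested genes. In all, 43 of the 74 members were below the filter, of which 17 had no count in any library and 26 had some, at most 13.

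Genes of the pathways around these families were counted from lists chosen for their known roles. Of 14 genes for electron supply and haem, 13 were tested, with 3 higher, 2 lower and 8 not passed. For this list and those that follow, the shares over all tested genes are 30.4% higher and 29.8% lower. P450 reductase, POR, averaged 44.1 CPM ± 2.17 in NOZ-R and 41.4 CPM ± 3.07 in NOZ (SD, n = 3 each), and its log2 ratio of 0.09 missed the threshold (adjusted p by edgeR = 0.332). FECH, which inserts iron to form haem, rose by 1.01 ± 0.102 on the log2 scale (standard error, adjusted p by edgeR = 1.53e-06), CYB5R1 by 0.68 and PGRMC2 by 0.62. ALAS1, the first enzyme of haem synthesis, had a log2 ratio of -0.30 and the cytochrome b5 gene CYB5B one of -0.43, both lower. Without NOZ replicate 2 the number lower was 4, and with library size only it was 6.

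Of 7 genes of the aryl hydrocarbon receptor axis, 6 were tested, with 3 higher and 2 lower, where 60.2% of all tested genes were called. The receptor gene AHR had 122.0, 125.8 and 138.2 CPM in NOZ-R, against 195.8, 241.2 and 212.4 CPM in NOZ, a log2 ratio of -0.75 ± 0.0773 (standard error, adjusted p by edgeR = 1.80e-06). AHRR, the repressor that AHR induces, had 1.27, 1.05 and 1.01 CPM in NOZ-R, against 3.35, 5.04 and 2.84 CPM in NOZ (log2 ratio -1.75 ± 0.271, standard error, adjusted p by edgeR = 8.33e-05). Both were lower without overlap. ARNT, NQO1 and TIPARP passed as higher, with log2 ratios of 0.31, 0.25 and 0.15, but with library size only none of the 3 passed, and the TIPARP call was lost in 10 of 17 settings.

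In the retinoid list, 5 of 12 tested genes were higher and 4 lower, beside 60.2% of all tested genes called in either direction. STRA6, the cell surface receptor that takes up retinol, had 56.9, 52.5 and 48.1 CPM in NOZ-R, against 3.69, 3.16 and 2.44 CPM in NOZ. It rose by 4.06 ± 0.127 on the log2 scale with the lines far apart (standard error, adjusted p by edgeR = 1.20e-11). The retinoic acid binding protein gene CRABP2 rose by 0.59 on the log2 scale and the retinol dehydrogenase DHRS9 by 0.44. RDH10, which makes retinaldehyde from retinol, had 18.6, 19.6 and 19.8 CPM in NOZ-R, against 39.5, 40.8 and 36.2 CPM in NOZ, a log2 ratio of -1.01 ± 0.0820 (standard error, adjusted p by edgeR = 1.79e-07). LRAT, which stores retinol as esters, had a log2 ratio of -1.08 from 1.05 CPM ± 0.411 in NOZ-R and 2.22 CPM ± 0.517 in NOZ (SD, n = 3 each, adjusted p by edgeR = 0.00903), and RDH13 one of -0.62. The smaller calls of DHRS3 (0.29) and SDR16C5 (-0.35) were lost in 7 and 9 of 17 settings. With library size only, 3 genes were higher and 6 lower.

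Among 17 nuclear receptors that control CYP genes, 10 were tested, with 4 higher and 2 lower, again beside 60.2% of all tested genes called. VDR, the vitamin D receptor, had 4.37, 5.45 and 6.37 CPM in NOZ-R, against 3.10, 2.55 and 1.90 CPM in NOZ. Its log2 ratio was 1.07 ± 0.210 (standard error, adjusted p by edgeR = 0.000602). CYP24A1, a known target gene of VDR, was higher too, as given above. A link between these changes was not tested. The retinoic acid receptor gene RARA rose by 0.83 on the log2 scale and RXRB by 0.51, while RXRA fell by 0.53 and RARB did not pass (log2 ratio -0.04). NR5A2, a receptor that drives bile acid genes in liver, had 1, 0 and 0 counts in NOZ-R, against 85, 83 and 73 in NOZ. The ratio of summed counts was 0.00446, with a 95% exact interval of 0.000113 to 0.0251. The xenobiotic receptor genes NR1I2 and NR1I3 were too low to be tested. Of 7 alcohol dehydrogenase genes only ADH5 was tested and it rose by 0.28 on the log2 scale.

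**Figure D4:**
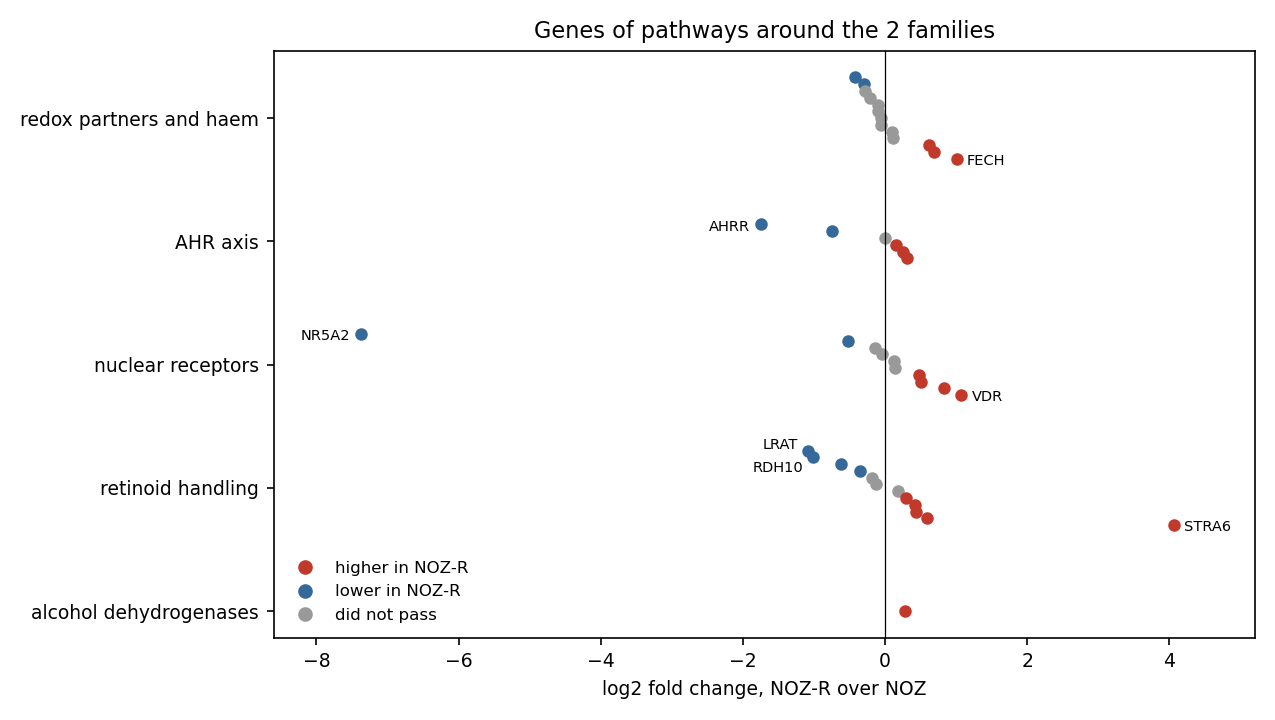
Log2 fold change of NOZ-R over NOZ (x axis) for each tested gene of the 5 pathway lists (y axis), with genes called at an absolute value of at least 1 named. STRA6 at 4.06 lies farthest to the right, and NR5A2, with 1 count in NOZ-R, farthest to the left.

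The members were also set beside the genes around them, since many chromosome regions differ between the lines. For each member the median log2 ratio was taken over the other tested genes within 5 Mb. Of 18 called members, 14 (77.8%) had the sign of their neighbourhood, as did 69.5% of all 8412 called genes with at least 10 neighbours. ALDH1B1 on chromosome 9 lay 0.27 above its neighbourhood, whose median was -0.70, so its fall was smaller than that of the genes around it. ALDH18A1 on chromosome 10 lay in a neighbourhood at -0.57 and CYP3A5 on chromosome 7 in one at -0.36, and both fell further. ALDH7A1 on chromosome 5 fell although its 24 neighbours had a median of 0.36. The neighbourhoods of ALDH3A1, ALDH1L2 and CYP4F11 had medians of 0.03, 0.04 and -0.07, and those of CYP27C1, CYP26B1 and CYP39A1 medians of 0.27, 0.27 and 0.28. The part of copy number in these changes was not tested.

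**Figure D5:**
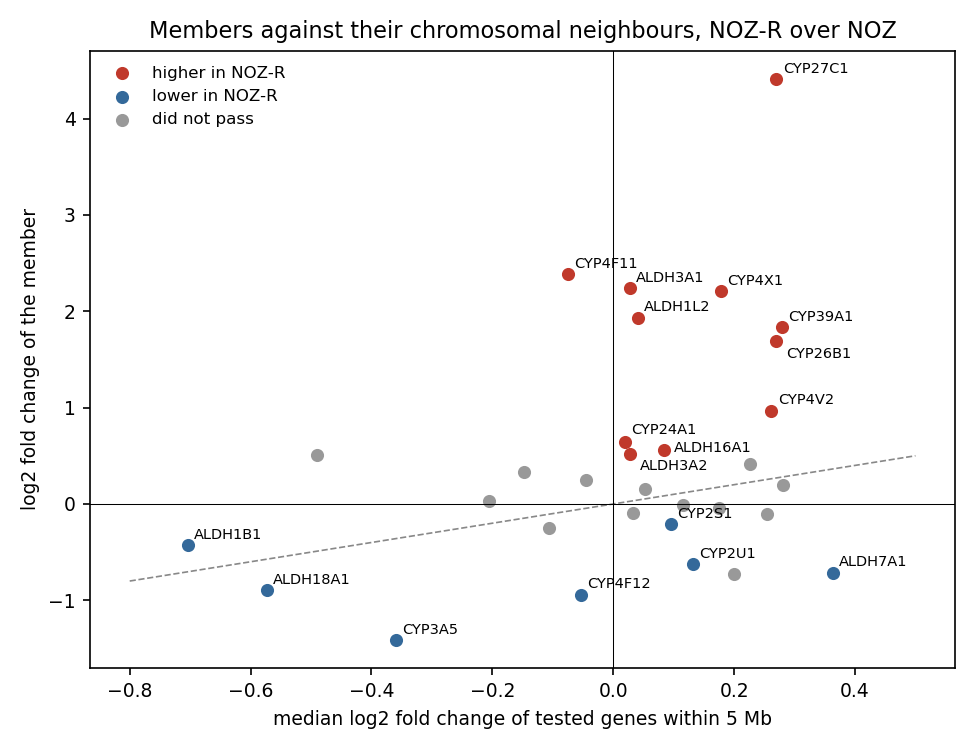
Log2 fold change of each of the 31 tested members (y axis) against the median of the other tested genes within 5 Mb (x axis), NOZ-R over NOZ, with called members named and a dashed line where both are equal. ALDH1B1 and ALDH18A1 lie in the neighbourhoods with the lowest medians among called members, and CYP27C1 far above its own.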

How the data were processed

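Per the labels, RNA came from 3 samples of NOZ-R and 3 of NOZ. The authors deposited raw counts per gene and FPKM. Per the submitters' processing notes, reads went through fastp 0.22.0 and the build was GRCh38. No source used here gives the aligner, counter, strand setting or annotation. The deposited FPKM is count over library total and a fixed gene length, without composition correction.

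Counts were tested with edgeR 4.0.16 in R 4.3.3 (filterByExpr, minimum count 10, TMM, quasi-likelihood test). Each standard error is the log2 ratio over the square root of F. Positions, exon overlaps and GC content are from GENCODE 29, matched by symbol for 13919 of 14386 tested genes. Intervals and floors hold counting error only, as PCR copies cannot be recognised. Replicate pairs differed by more than sampling noise (mean chi-square per gene 2.13 to 10.0). The fit was tested on simulated data.

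Values in every library were given for members with an adjusted p under 0.05 and at least a 2-fold change, and for the 5 CYP and 5 ALDH members of highest mean FPKM. Of each pathway list, up to 3 increases and 3 decreases past the test were named. Other genes given were chosen after their values were seen. The members and lists were chosen with earlier results of these data known. Alternatives changed the scaling, the filter, the threshold (0.01) or the test (DESeq2 1.42.0, limma 3.58.1 on log2(FPKM + 1) or log2(FPKM + 0.1), 2-fold), added the replicate block, or left out each library.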

Additional observations from a re-analysis of the deposited data

How the results depend on the processing

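No call of a tested member reversed its direction under any of the 17 alternatives run. Tested against a 2-fold change itself, 5 CYP members were higher and 1 was lower, and 2 ALDH members were higher and 0 lower. The same test called 847 genes higher and 442 lower over all genes, 0 and 0 of the redox and haem list, 0 and 1 of the AHR axis, 0 and 1 of the nuclear receptors, 1 and 0 of the retinoid list, and 0 alcohol dehydrogenases. Fewer calls follow from the construction of that test. With limma on log2(FPKM + 1) or log2(FPKM + 0.1), which has no composition scaling, 5 ALDH members were lower (ALDH9A1 and ALDH1A3 joined), 6 redox and haem genes were lower, and 0 AHR axis genes were higher. Scaling by library size only shifted the median log2 ratio over all genes by -0.129. It called 3316 genes higher and 5468 lower, against 4379 and 4284 with TMM. It also called 6 redox and haem genes lower and 0 AHR axis genes higher, and of the retinoid genes 3 higher and 6 lower. Without a filter, 2 alcohol dehydrogenases were higher.

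Leaving out each library in turn, the number of CYP members lower ranged from 2 to 3, the lowest without NOZ replicate 1, where CYP4F12 and CYP2S1 did not pass. The number of redox and haem genes lower ranged from 2 to 4, the highest without NOZ replicate 2. The replicate numbers do not pair the samples. Correlations of same-numbered libraries' deviations from their line means were 0.0682, -0.0224 and -0.0365, and not every library correlated best with its own number. With the replicate block, 7 CYP members were higher and 3 lower and 4 ALDH members were higher and 3 lower, with CYP2S1 the 1 member that lost its call. The 43 members below the filter were not compared in the main fit. Without a filter, 8 CYP members were higher and 3 lower, against 7 and 4 in the main fit. Members below the filter had at most 13 counts in any library, so such a call rests on few reads.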

Other observations

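Rows named for these families but outside the member rule numbered 72, mostly pseudogenes and antisense transcripts. Of these, 49 had no count in any library and 2 were tested. ALDH2, the mitochondrial enzyme that clears acetaldehyde, had 38, 42 and 39 counts in NOZ-R, against 66, 70 and 64 in NOZ. Its log2 ratio was -0.65 ± 0.196 (standard error, adjusted p by edgeR = 0.0113), and the call was lost without NOZ-R replicate 1, at a threshold of 0.01 and against a 2-fold change. The antisense transcript ALDH1A3-AS1 had 28, 30 and 26 counts in NOZ-R, against 68, 64 and 44 in NOZ, a log2 ratio of -0.95 ± 0.205 (standard error, adjusted p by edgeR = 0.00123), beside the -0.10 of ALDH1A3 on the other strand, which did not pass.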
